A study of Mus musculus with 12 samples.

Results

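Pioglitazone was set against irbesartan on 8 of the 12 arrays of the series, the 4 labelled pioglitazone treated and the 4 labelled irbesartan treated. Each array set a pool of RNA from 3 drug-treated cultures of mouse cells beside a pool from 3 vehicle-treated cultures, as the labels describe them. For both drugs, arrays 1 and 3 held the drug in channel 1, whereas arrays 2 and 4 held it in channel 2. Each array was chosen by its label and turned to drug over vehicle, and the mean ratio of irbesartan was subtracted from that of pioglitazone in a fit with a term for the dye. The other 4 arrays, of telmisartan, entered the fit for its shared spread and dye term and are not described. The labels name neither the cells, their genotype, the dose of either drug, the vehicle nor the time of treatment, so a difference between the drugs and a difference between their doses cannot be told apart. Nor is it stated if a drug's 4 arrays were made from a single pool, and the p-values therefore measure array-to-array spread that may be purely technical.

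Pioglitazone is a thiazolidinedione and binds PPAR-gamma, the nuclear receptor that drives the formation of fat cells and is the target of this class of insulin sensitisers. Once bound, the receptor pairs with the retinoid X receptor on DNA and raises genes of fatty acid uptake, storage and oxidation. Irbesartan is a biphenyl tetrazole made to block the angiotensin type 1 receptor, through which angiotensin II raises blood pressure, and some drugs of its class also act as weak or partial PPAR-gamma agonists. The series title refers to such receptor blockers that activate PPAR-gamma, and the arrays set one of them beside a full agonist.

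The values are log2 ratios, so they show how a drug changed a transcript relative to vehicle and not how abundant the transcript was. In bulk RNA, fewer cells of a type and less RNA per cell cannot be told apart. Between 11.65% and 17.42% of spots were empty on the pioglitazone arrays, against 7.47% to 9.85% on the irbesartan arrays, and no intensities were given from which the depth of a value could be judged. Over spots with a gene, pioglitazone arrays of 1 channel order correlated at 0.884 to 0.913, against 0.711 to 0.747 for irbesartan. Arrays of opposite order correlated at -0.732 to -0.663 before they were turned for pioglitazone, against -0.335 to -0.296 for irbesartan. The numerator of the ratio is not given in the sources used here. Likely it was channel 2: that reading placed 17 of 25 known PPAR-gamma targets above vehicle with pioglitazone, and 5 of 7 genes known to be repressed by thiazolidinediones below it. Which way those lists moved with pioglitazone is therefore no result, and under the other reading every sign below would turn round.

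A minority of the features tested separated the drugs past the threshold. Of 17217 features tested (spots, or averages of repeat spots), 3113 (18.1%) differed between the drugs at an adjusted p under 0.05. Of these, 1312 (7.62%) were higher and 1801 (10.5%) were lower with pioglitazone than with irbesartan. The difference reached 1.5-fold in 196 features (1.14%), 45 higher (0.261%) and 151 lower (0.877%). At an unadjusted p under 0.05 there were 5240 features (30.4%), and in 2622 (15.2%) the arrays of the drugs did not overlap. Against vehicle, 49.9% of features passed with pioglitazone and 31.3% with irbesartan. Of the 3113 features, 2683 (86.2%) lay farther from 0 with pioglitazone and 430 with irbesartan, and of the 196 this was so for 184 with pioglitazone. The same share over all features is not given, so these counts have no background beside them and are a description only. The ratios of the 4 pioglitazone arrays spread more widely over features, with SDs of 0.293 to 0.349, against 0.232 to 0.254 on the irbesartan arrays. When every array was scaled to 1 median absolute value, 1763 features passed, and 1654 of them were among the 3113. In that setting 1238 of the 1763 (70.2%) lay farther from 0 with pioglitazone. The fit with no dye term called 1044 features.

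**Figure D1:**
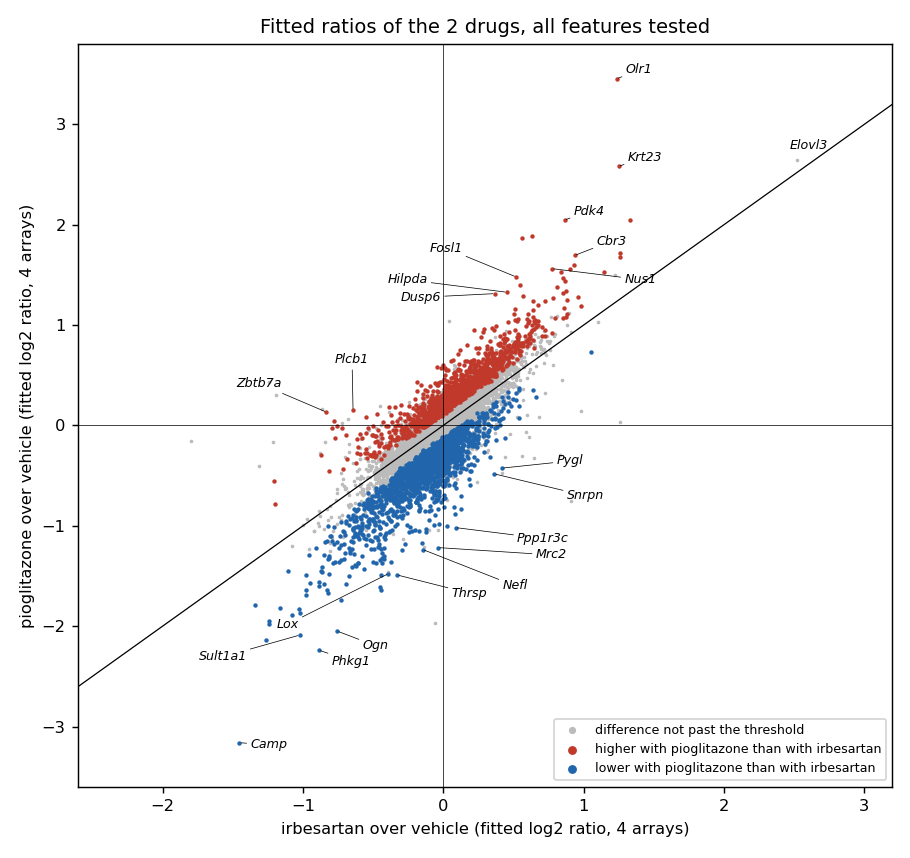
Fitted log2 ratio of pioglitazone over vehicle (y axis) against that of irbesartan over vehicle (x axis) for the 17217 features tested, with the line of equal ratios. Red and blue points are the 1312 features higher and the 1801 lower with pioglitazone at an adjusted p under 0.05. Of the named genes, Olr1 (difference 2.22) and Camp (-1.71) stand farthest from the line, and Elovl3 lies near it far from 0 with both drugs.

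Of the named genes, Olr1, the receptor for oxidised low-density lipoprotein, differed most between the drugs. On arrays 1 to 4 it read 3.11, 3.64, 3.61 and 3.44 (log2) with pioglitazone, against 1.16, 1.36, 1.23 and 1.18 with irbesartan. All 8 arrays lay above vehicle. The 12 genes with the largest difference in each direction were chosen among features whose arrays of the drugs do not overlap, so that this holds for each of them by choice. The difference was 2.22 ± 0.16 (SE), or 4.65-fold (adjusted p = 1.65e-05). Olr1 had also served among the PPAR-gamma targets to set the direction of the ratios. Its promoter is shown because Olr1 is one of 2 genes with the AP-1 motif in a promoter, among the 11 of the 12 genes with the largest positive differences that have a promoter in the table, and Fosl1, a subunit of AP-1, is another of the 12. The sequence runs from 250 bases before to 50 bases after the start site, from RefSeq on GRCm38.p6 (chr6:129507116-129507415, minus strand), with the AP-1 match in capitals.
Olr1: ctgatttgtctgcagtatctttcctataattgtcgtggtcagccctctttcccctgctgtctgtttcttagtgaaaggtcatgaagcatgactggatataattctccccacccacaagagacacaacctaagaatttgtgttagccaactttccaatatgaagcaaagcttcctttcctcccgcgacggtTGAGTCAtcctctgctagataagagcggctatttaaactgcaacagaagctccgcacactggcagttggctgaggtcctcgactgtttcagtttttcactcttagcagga

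The AP-1 motif was searched as TGANTCA on both strands and was found in a promoter of 8.97% of 27025 mouse genes, and in 7.81% of 32851 promoters of the same length. The other gene with a match was Hilpda, where the letters were TGAATCA, against TGAGTCA in Olr1. The promoters of Hilpda overlap and share this same match. The DR1 motif of PPAR-gamma with its partner, searched on both strands as a direct repeat of AGGTCA with 1 base of any kind between, was found in 0.0396% of all promoters and in 0.0481% of genes. It was in none (0) of the 11 genes and in none (0) of the 18 PPAR-gamma targets with a promoter. At so low a share a match among so few genes was unlikely in any case, so its absence is no result. A match describes these letters in this window and no more.

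Other genes with large positive differences belong to fuel handling and the cytoskeleton. Pdk4, the kinase that switches off pyruvate dehydrogenase, read 1.99, 2.0, 2.11 and 2.08 with pioglitazone, against 0.95, 0.76, 0.97 and 0.77 with irbesartan. The 4 pioglitazone arrays lay close together at the higher ratio, and the difference was 1.18 ± 0.06 (adjusted p = 1.19e-06). The keratin gene Krt23 read 2.45, 2.58, 2.85 and 2.45 with pioglitazone, against 1.5, 1.11, 1.06 and 1.32 with irbesartan (difference 1.33 ± 0.12, adjusted p = 6.26e-05). Both drugs raised it. Hilpda, which blocks triglyceride breakdown on lipid droplets, read 1.36, 1.29, 1.36 and 1.30 with pioglitazone, against 0.43, 0.46, 0.50 and 0.42 with irbesartan (difference 0.88 ± 0.04, adjusted p = 4.52e-07). Both drugs raised Hilpda as well.

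A pair of genes of growth factor signalling followed. Fosl1 read 1.51, 1.35, 1.61 and 1.46 with pioglitazone, against 0.46, 0.47, 0.54 and 0.59 with irbesartan (difference 0.96 ± 0.06, adjusted p = 7.27e-06). Dusp6, the phosphatase that dampens ERK, read 1.23, 1.38, 1.24 and 1.4 with pioglitazone, against 0.30, 0.39, 0.31 and 0.46 with irbesartan (difference 0.95 ± 0.04, adjusted p = 2.19e-07). Both genes rose with either drug. Nus1, a subunit of the enzyme that makes dolichol, differed by 0.79 ± 0.04 and the carbonyl reductase gene Cbr3 by 0.76 ± 0.05, with fitted ratios of 1.56 and 1.69 with pioglitazone, against 0.77 and 0.94 with irbesartan. With arrays scaled, the difference of Cbr3 was 0.47.

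The remaining 4 of the 12 largest positive differences had another pattern: irbesartan lowered them, while the fitted ratio with pioglitazone did not pass its own test (adjusted p 0.0933 to 0.78). The transcriptional repressor gene Zbtb7a read 0.20, 0.03, 0.27 and 0.03 with pioglitazone, against -0.48, -1.18, -0.48 and -1.20 with irbesartan (difference 0.97 ± 0.11, adjusted p = 0.000161). The arrays with irbesartan in channel 2 were lower than those with it in channel 1. The phospholipase gene Plcb1 read 0.06, 0.21, 0.19 and 0.14 with pioglitazone, against -0.34, -0.83, -0.45 and -0.95 with irbesartan (difference 0.79 ± 0.10). Its irbesartan arrays split by channel in the same way. Gbf1, an exchange factor of the Golgi, and Syne2, a nuclear envelope protein, had fitted ratios of 0.04 and -0.03 with pioglitazone, against -0.78 and -0.79 with irbesartan. Other spots of these genes disagreed: that of Gbf1 differed by -0.20 ± 0.04 (adjusted p = 0.0114), and that of Syne2 by 0.32 ± 0.04 with a ratio of 0.33 for pioglitazone and 0.01 for irbesartan. The named spot of Gbf1 had an adjusted p = 0.0664 without a dye term.

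The largest negative difference among the named genes was in Camp, the gene of the antimicrobial peptide cathelicidin. It read -2.77, -3.31, -3.20 and -3.37 with pioglitazone, against -1.27, -1.48, -1.5 and -1.56 with irbesartan. Both drugs lowered it. The difference was -1.71 ± 0.17, or 3.27-fold (adjusted p = 7.55e-05).

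Genes of glycogen use stood among the 12 largest negative differences. Phkg1, a catalytic subunit of the kinase that activates glycogen phosphorylase, read -2.02, -2.21, -2.34 and -2.38 with pioglitazone, against -0.94, -0.58, -1.21 and -0.82 with irbesartan (difference -1.35 ± 0.17, adjusted p = 0.000378). Ppp1r3c, which brings a phosphatase to glycogen, read -0.99, -1.07, -0.87 and -1.14 with pioglitazone, against 0.31, -0.09, 0.26 and -0.13 with irbesartan (difference -1.11 ± 0.11, adjusted p = 8.8e-05). Pioglitazone lowered both, whereas irbesartan lowered Phkg1 (fitted ratio -0.89) and left Ppp1r3c at 0.09 ± 0.08 (adjusted p = 0.478). The liver-type glycogen phosphorylase gene Pygl moved in opposite directions. It read -0.29, -0.53, -0.36 and -0.52 with pioglitazone, against 0.42, 0.36, 0.48 and 0.42 with irbesartan (difference -0.84 ± 0.05, adjusted p = 2.51e-06). All pioglitazone arrays were below vehicle and all irbesartan arrays above it.

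The other large negative differences were spread over matrix, lipid and sulfation genes. The proteoglycan gene Ogn read -1.98, -2.18, -2.0 and -2.04 with pioglitazone, against -0.67, -0.82, -0.72 and -0.81 with irbesartan (difference -1.29 ± 0.04, adjusted p = 4.82e-08). Lox, the enzyme that cross-links collagen, read -1.55, -1.42, -1.52 and -1.41 with pioglitazone, against -0.39, -0.34, -0.47 and -0.38 with irbesartan (difference -1.09 ± 0.05, adjusted p = 7.68e-07). Both fell with either drug, and pioglitazone arrays lay more than 1 log2 unit below irbesartan arrays on average. Thrsp, a regulator of fat synthesis, read -1.41, -1.54, -1.5 and -1.51 with pioglitazone, against -0.24, -0.42, -0.22 and -0.42 with irbesartan (difference -1.16 ± 0.04, adjusted p = 2.19e-07). The phenol sulfotransferase gene Sult1a1 read -1.90, -2.26, -1.98 and -2.22 with pioglitazone, against -0.85, -1.21, -0.79 and -1.25 with irbesartan (difference -1.06 ± 0.04, adjusted p = 2.19e-07). Both fell with either drug. Mrc2, a receptor that takes up collagen, had a fitted ratio of -1.22 with pioglitazone, against -0.04 (adjusted p = 0.899) with irbesartan (difference -1.18 ± 0.20).

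A further 3 members of this set carry limits. Lars2 (-1.20 ± 0.21) and Pigt (-1.04 ± 0.18) had the ratio of Fabp4, within 0.0015 (log10), on 4 and 3 of the 4 arrays with the drug in channel 1, and why the spots coincide was not tested. Lars2 had an adjusted p = 0.0558 without a dye term. The neurofilament gene Nefl differed by -1.09 ± 0.09 at 1 spot and by 0.02 ± 0.04 (adjusted p = 0.814) at its other spot.

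**Figure D2:**
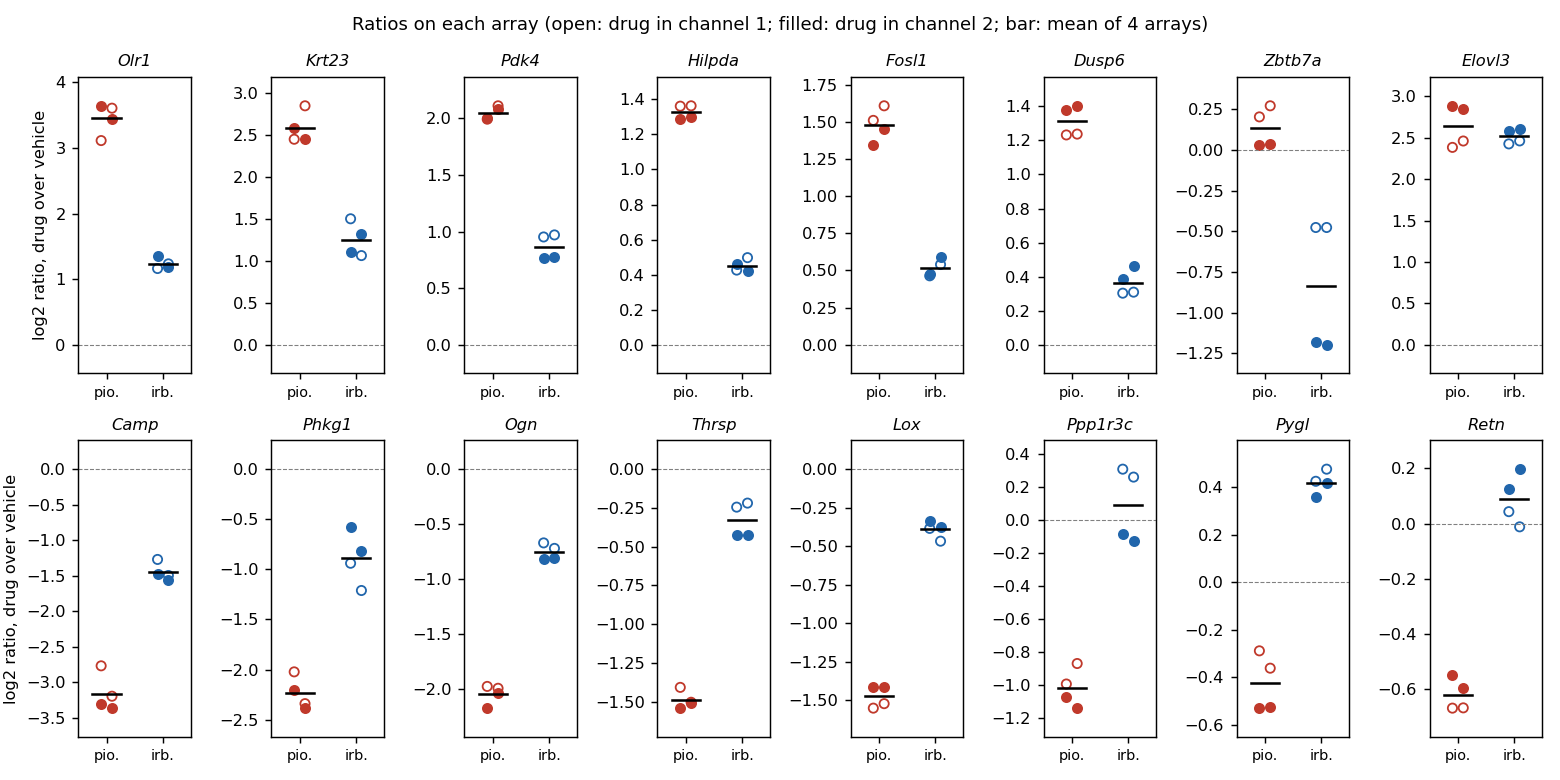
Log2 ratio of drug over vehicle on each array for 16 genes, with the 4 pioglitazone arrays left of the 4 irbesartan arrays. Open circles have the drug in channel 1, filled circles in channel 2, and bars are means of 4 arrays. Both drugs raised Elovl3 to overlapping ratios, and Zbtb7a and Ppp1r3c show the split by channel with irbesartan.

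Of 4597 features in which both drugs passed their own test, 120 had opposite signs, 44 with pioglitazone above vehicle and 76 with it below. Both ratios were 0.3 or more from 0 in 3 of them, all lower with pioglitazone. Besides Pygl these were Snrpn and Trappc3. Snrpn, a splicing protein gene that is imprinted, read -0.18, -0.70, -0.29 and -0.76 with pioglitazone, against 0.53, 0.15, 0.59 and 0.18 with irbesartan (difference -0.85 ± 0.12, adjusted p = 0.000635). Trappc3, of a vesicle tethering complex, differed by -0.65 ± 0.13, but its other spot differed by -0.25 ± 0.09 (adjusted p = 0.0855).

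Among genes of interest chosen by name, 4 did not separate the drugs past the threshold. Elovl3, an elongase of very long chain fatty acids, read 2.38, 2.89, 2.46 and 2.85 with pioglitazone, against 2.43, 2.58, 2.46 and 2.60 with irbesartan. These ratios overlapped far above vehicle, with a difference of 0.13 (95% interval -0.04 to 0.29, adjusted p = 0.289). With arrays scaled, the sign turned and the test passed (-0.50, adjusted p = 0.000503). Agtr1a, the receptor irbesartan blocks, had fitted ratios of 0.07 with pioglitazone and 0.01 with irbesartan, a difference of 0.06 (-0.08 to 0.20, adjusted p = 0.575). The leptin gene Lep had ratios of 0.11 with pioglitazone and 0.03 with irbesartan, a difference of 0.08 (0.01 to 0.15, adjusted p = 0.0908). Fabp4, the fatty acid carrier of fat cells, gave -0.26 (-0.69 to 0.17, adjusted p = 0.409). It read -0.88, 0.39, -1.04 and 0.16 with pioglitazone, against -0.34, 0.20, -0.40 and 0.20 with irbesartan. The arrays with the drug in channel 1 were the lower ones for both drugs. On all 4 of those arrays Lars2 and Lpl held the ratio of Fabp4, so its difference carries the limit given above for Lars2.

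Genes were then grouped by role, with the spots of a gene averaged. Of 13945 genes tested, 2768 (19.8%) passed, 1186 (8.5%) higher and 1582 (11.3%) lower with pioglitazone, and the median difference was 0.003. Past 1.5-fold were 158 genes (1.13%), 33 higher (0.237%) and 125 lower (0.896%), 4485 (32.2%) had an unadjusted p under 0.05, and 2208 (15.8%) had no overlap. These shares are the background of every count of a list below.

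**Figure D3:**
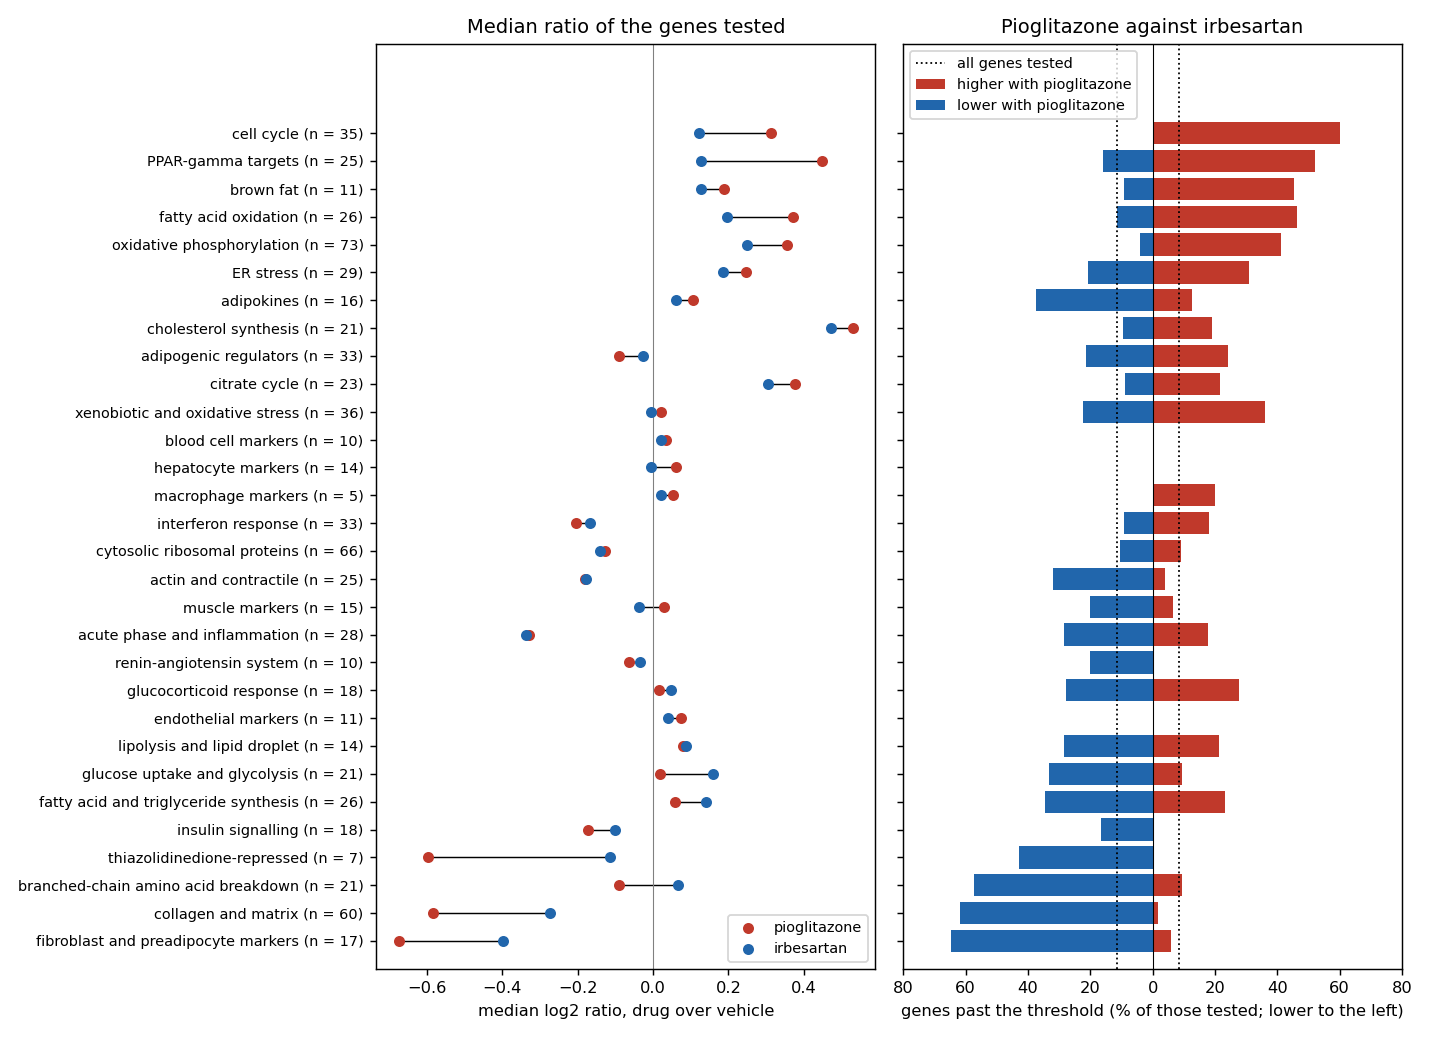
Left, median log2 ratio over vehicle of the genes tested in each of 30 lists, for pioglitazone (red) and irbesartan (blue). Right, percentage of each list that was higher (red, to the right) or lower (blue, to the left) with pioglitazone, with dotted lines at 8.5% and 11.3% for all genes tested. Cell cycle genes lie at the top, with 21 of 35 higher, and fibroblast and matrix genes at the bottom.

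Of 25 PPAR-gamma targets tested, 13 were higher and 4 lower with pioglitazone, with a median ratio of 0.45 with pioglitazone and 0.13 with irbesartan and a median difference of 0.15. The same targets had helped choose which channel was read as the numerator, so higher rather than lower is no result. Olr1, Pdk4 and Hilpda led the higher ones. The fatty acid transporter gene Cd36 read 1.0, 1.07, 0.88 and 1.06 with pioglitazone, against 0.51, 0.71, 0.60 and 0.71 with irbesartan (difference 0.37 ± 0.05, adjusted p = 0.000334). Its groups did not overlap. Angptl4, an inhibitor of lipoprotein lipase, had fitted ratios of 0.98 with pioglitazone and 0.66 with irbesartan (difference 0.32 ± 0.04). Both drugs raised these 2 genes. Lpl and Adipoq, which code for that lipase and for adiponectin, were lower with pioglitazone, but they too had the ratio of Fabp4 on at least 2 arrays. With arrays scaled 5 targets were higher and 1 lower, and Cd36 (0.19, adjusted p = 0.0742) and Angptl4 (0.14, adjusted p = 0.22) no longer passed. Only 2 were lower without pioglitazone array 2 or 4 or irbesartan array 1 or 3. Without a dye term 8 targets were higher and 2 lower, and Angptl4 had an adjusted p = 0.228. Lpl lost its call without any 1 of 7 of the 8 arrays (adjusted p 0.0507 to 0.0826).

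Pparg itself fell with both drugs. It read -1.13, -1.04, -1.16 and -1.03 with pioglitazone, against -0.62, -0.47, -0.61 and -0.45 with irbesartan. Every pioglitazone array was below every irbesartan array, and the difference was -0.55 ± 0.04 (adjusted p = 5.09e-06). Cebpa, its partner factor in fat cell formation, read -0.18, -0.64, -0.15 and -0.58 with pioglitazone, against 0.39, 0.03, 0.35 and 0.01 with irbesartan (difference -0.58 ± 0.05, adjusted p = 4.6e-05). It fell with pioglitazone and rose with irbesartan (0.20, adjusted p = 0.00194). Klf4, an early factor of fat cell formation, had fitted ratios of -0.09 with pioglitazone and -0.51 with irbesartan (difference 0.42 ± 0.04). Stat5a, a signal transducer of growth hormone, had -0.38 with pioglitazone and 0.02 with irbesartan (difference -0.40 ± 0.05). Over all 33 adipogenic regulators tested, 8 were higher and 7 lower with pioglitazone, and over the alternatives 3 to 8 were higher and 6 to 8 lower. Among 16 adipokine genes 2 were higher and 6 lower, and among 14 genes of lipolysis and the lipid droplet 3 were higher and 4 lower.

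Genes that thiazolidinediones are known to repress in fat were lower with pioglitazone in 3 of 7 cases and higher in 0. This list had helped choose which channel was read as the numerator, so lower rather than higher is no result. The resistin gene Retn read -0.67, -0.55, -0.67 and -0.59 with pioglitazone, against 0.04, 0.12, -0.01 and 0.20 with irbesartan (difference -0.71 ± 0.03, adjusted p = 8.06e-07). All pioglitazone arrays lay below vehicle, and the irbesartan arrays lay at or just above it. The angiotensinogen gene Agt read -0.53, -0.66, -0.55 and -0.65 with pioglitazone, against -0.07, -0.20, -0.07 and -0.12 with irbesartan (difference -0.48 ± 0.03, adjusted p = 5.3e-06). Hsd11b1, which makes active glucocorticoid, had fitted ratios of -1.0 with pioglitazone and -0.55 with irbesartan (difference -0.45 ± 0.04, or -0.28 with arrays scaled). Agt is also the precursor of angiotensin II. Of 10 renin-angiotensin genes tested, 2 were lower and 0 higher with pioglitazone, Agt and Agtr2, the type 2 receptor gene. In either direction the share of this list that passed lay close to the 19.8% of all genes. Agt belongs to the list that had helped choose the numerator, so its direction is no result here either. Agtr2 differed by -0.40 ± 0.10 (adjusted p = 0.0235), and it lost its call without a dye term (adjusted p = 0.0948), with arrays scaled (0.25) and without pioglitazone array 1, 2 or 3 or irbesartan array 1 or 3 (0.0519 to 0.0713). Without telmisartan array 2, 4 genes of the list were lower.

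Genes of mitochondrial respiration rose with both drugs: 66 of 73 oxidative phosphorylation genes rose over vehicle with pioglitazone, and 66 with irbesartan. Over all genes, 52% passed that test in either direction with pioglitazone, and 33.7% with irbesartan. In the difference between the drugs 30 were higher and 3 lower with pioglitazone, and 59 lay above 0 in the difference. Their median ratio was 0.35 with pioglitazone and 0.25 with irbesartan, with a median difference of 0.10. Uqcrc2, a core subunit of complex III, read 0.49, 0.57, 0.43 and 0.65 with pioglitazone, against 0.07, 0.27, 0.12 and 0.30 with irbesartan (difference 0.34 ± 0.04, adjusted p = 0.000315). Its groups did not overlap. Cycs, for cytochrome c, had fitted ratios of 1.59 with pioglitazone and 1.24 with irbesartan (difference 0.34 ± 0.07, adjusted p = 0.00898), and of its 2 spots 1 did not pass alone (0.27, adjusted p = 0.114). With arrays scaled the list had 3 genes higher and 2 lower, and Cycs differed by 0.04 (adjusted p = 0.865). The count of lower genes was 1 without pioglitazone array 2, 3 or 4 or irbesartan array 2. Without a dye term 10 genes of the list were higher and 0 lower, and Cycs had an adjusted p = 0.0675.

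Fatty acid oxidation genes had 12 of 26 higher and 3 lower, with median ratios of 0.37 with pioglitazone and 0.20 with irbesartan. Cpt1a, which commits fatty acids to the mitochondria, read 0.50, 0.57, 0.51 and 0.62 with pioglitazone, against -0.10, 0.11, -0.13 and 0.19 with irbesartan (difference 0.53 ± 0.04, adjusted p = 2.26e-05). Pioglitazone raised it, and irbesartan left it at 0.02 (adjusted p = 0.752). The peroxisomal enzyme gene Ehhadh read 0.39, 0.60, 0.28 and 0.49 with pioglitazone, against 0.07, 0.09, 0.15 and 0.04 with irbesartan (difference 0.35 ± 0.07, adjusted p = 0.00672). With arrays scaled 5 genes of the list were higher and 1 lower, without a dye term 5 and 0, and without irbesartan array 1 or pioglitazone array 2 or 4 none (0) was lower, and 1 without irbesartan array 3. In the citrate cycle 5 of 23 genes were higher and 2 lower (0 to 7 and 0 to 5 over the alternatives), and in the brown fat list 5 of 11 were higher and 1 lower. The brown fat count was 3 higher without pioglitazone array 3, irbesartan array 1 or irbesartan array 3, with dye-swap pairs averaged and with arrays scaled, and 2 without a dye term. Its lower count was 0 without pioglitazone array 2 or 4.

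Breakdown of branched-chain amino acids, which feeds the citrate cycle in fat cells, moved the other way. Of 21 genes tested, 12 were lower and 2 higher with pioglitazone. Their median ratio was -0.09 with pioglitazone and 0.07 with irbesartan. Bcat2, the mitochondrial transaminase that starts the pathway, read -0.40, -0.37, -0.34 and -0.48 with pioglitazone, against 0.04, 0.15, 0.03 and 0.21 with irbesartan (difference -0.51 ± 0.05, adjusted p = 7.28e-05). Pioglitazone lowered it and irbesartan raised it (0.11, adjusted p = 0.0373). Mccc1 and Mccc2, the subunits of the carboxylase for leucine breakdown, differed by -0.41 ± 0.09 and -0.40 ± 0.06, and Pccb, of propionyl-CoA carboxylase, by -0.39 ± 0.06. Dld (0.30 ± 0.03), a subunit that the pathway shares with the citrate cycle, was higher with pioglitazone. The count of lower genes was 7 without pioglitazone array 2 or irbesartan array 1, 6 without pioglitazone array 4 or with arrays scaled, and 5 without a dye term. The count of higher genes was 1 without a dye term, with array numbers blocked or without any 1 of the 8 arrays other than irbesartan array 4, and 0 with arrays scaled.

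Fat synthesis genes were split. Of 26 genes of fatty acid and triglyceride synthesis, 6 were higher and 9 lower with pioglitazone. Dgat2, which completes triglycerides, read -0.68, -0.81, -0.72 and -0.83 with pioglitazone, against 0.17, -0.20, 0.17 and -0.21 with irbesartan (difference -0.74 ± 0.06, adjusted p = 2.26e-05). The fatty acid synthase gene Fasn had fitted ratios of -0.50 with pioglitazone and -0.01 with irbesartan (difference -0.49 ± 0.04). Acacb, whose product malonyl-CoA restrains fatty acid oxidation, rose with both, at 0.86 with pioglitazone and 0.42 with irbesartan (difference 0.43 ± 0.04). Pioglitazone lowered Thrsp, Dgat2 and Fasn, of which irbesartan lowered Thrsp. Without a dye term 2 genes were higher and 5 lower, and with arrays scaled 1 was higher and 7 lower. Cholesterol synthesis genes had median ratios of 0.53 with pioglitazone and 0.47 with irbesartan, and 4 of 21 were higher and 2 lower (2 to 5 and 1 to 4 over the alternatives). Hsd17b7 was higher (0.46 ± 0.04) and the squalene synthase gene Fdft1 lower (-0.19 ± 0.04) with pioglitazone.

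In glucose uptake and glycolysis 7 of 21 genes were lower and 2 higher with pioglitazone. The higher ones were the carriers Slc16a1 for lactate (1.29 with pioglitazone, 0.57 with irbesartan, difference 0.73 ± 0.04) and Slc2a1 for glucose (0.77 with pioglitazone, 0.23 with irbesartan, difference 0.54 ± 0.04). The lower ones included the enzymes Hk1 (-0.43 with pioglitazone, -0.06 with irbesartan) and Ldha (-0.04 with pioglitazone, 0.33 with irbesartan). The list had 3 lower genes without a dye term, and Slc2a1 then had an adjusted p = 0.235. In the insulin signalling list 3 of 18 genes were lower and 0 higher. In either direction 16.7% of that list passed, beside 19.8% of all genes. Over the alternatives 0 to 4 were lower, with 1 without pioglitazone array 2 or 4 or irbesartan array 1 or 2.

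Most matrix genes fell with both drugs: 48 of 60 collagen and matrix genes tested fell below vehicle with pioglitazone and 41 with irbesartan. In the difference 37 were lower and 1 higher with pioglitazone, and 52 lay below 0. Their median ratio was -0.59 with pioglitazone and -0.27 with irbesartan, with a median difference of -0.22. Besides Ogn and Lox, the proteoglycan gene Lum read -1.81, -1.53, -1.97 and -1.65 with pioglitazone, against -0.98, -0.51, -0.85 and -0.57 with irbesartan (difference -1.01 ± 0.05, adjusted p = 9.32e-07). Fibronectin's gene Fn1 read -1.61, -1.70, -1.62 and -1.74 with pioglitazone, against -0.80, -0.85, -0.82 and -0.83 with irbesartan (difference -0.84 ± 0.06, adjusted p = 5.37e-06). The groups of both genes stood apart. Comp, a cartilage matrix protein gene, differed by -0.85 ± 0.10, or -0.55 with arrays scaled. Col1a1, of the main fibrillar collagen, was lower too (-0.68 ± 0.04), and the protease gene Mmp3 was the 1 gene that was higher (0.21), but not without pioglitazone array 1 or irbesartan array 4. Over the alternatives 26 to 40 genes were lower.

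Fibroblast and preadipocyte markers moved with the matrix genes: 11 of 17 tested were lower and 1 higher with pioglitazone, with median ratios of -0.67 with pioglitazone and -0.40 with irbesartan. Fst, an inhibitor of activin, had fitted ratios of -1.58 with pioglitazone and -0.69 with irbesartan (difference -0.89 ± 0.16). Gas6, a ligand of TAM receptors, read -1.32, -1.45, -1.24 and -1.42 with pioglitazone, against -0.69, -0.84, -0.60 and -0.84 with irbesartan (difference -0.61 ± 0.04, adjusted p = 2.24e-06). Pdgfra, the growth factor receptor that marks fat cell precursors, had -1.41 with pioglitazone and -0.86 with irbesartan (difference -0.54 ± 0.05). Twist2 was the 1 marker that was higher (0.44), but not without pioglitazone array 1 or 3 or irbesartan array 3. With arrays scaled 6 markers were lower, and the differences of Gas6 and Pdgfra were -0.39 and -0.31. The part of these markers in the difference of the matrix genes was not tested. Of 25 actin and contractile genes 8 were lower and 1 higher, led by the calponin gene Cnn2 (-0.74 ± 0.05), and with arrays scaled 4 were lower and 5 higher.

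Cell cycle genes were higher with pioglitazone. Of 35 tested, 21 were higher and 0 lower, and 34 lay above 0 in the difference. Their median ratio was 0.31 with pioglitazone and 0.12 with irbesartan, with a median difference of 0.28. Cks2, a partner of the cyclin-dependent kinases, read 0.71, 1.12, 0.79 and 1.12 with pioglitazone, against 0.19, 0.40, 0.12 and 0.41 with irbesartan (difference 0.66 ± 0.10, adjusted p = 0.00152). The proliferation marker gene Mki67 read 0.49, 0.45, 0.71 and 0.53 with pioglitazone, against 0.15, 0.06, 0.11 and 0.10 with irbesartan (difference 0.44 ± 0.05, adjusted p = 0.000128). Cenpa, the histone of the centromere, read 1.48, 1.12, 1.45 and 0.92 with pioglitazone, against 0.84, 0.66, 0.76 and 0.65 with irbesartan (difference 0.52 ± 0.07, adjusted p = 0.000596, or 0.32 with arrays scaled). The groups of these 3 genes did not overlap. The replication helicase gene Mcm2 read 0.69, 0.66, 0.41 and 0.68 with pioglitazone, against 0.16, 0.19, 0.22 and 0.22 with irbesartan (difference 0.41 ± 0.06), with pioglitazone array 3 apart from the rest. Cdc20, the activator of the ligase that ends mitosis, was higher too (0.36). There were 12 higher genes without a dye term, and over the other alternatives 15 to 26.

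Promoters of cell cycle genes are known for a cell cycle homology region and CCAAT boxes near the start site. Searched on both strands, the letters TTTGAA were found in 13 of the 29 cell cycle genes with a promoter in the table (44.8%), against 20.2% of 27025 genes, and CCAAT in 22 of 29 (75.9%), against 41.1%. The 40 matrix genes with a promoter had these letters in 7 (17.5%) and 19 (47.5%) cases. Of the 12 genes with the largest negative differences, 8 had a promoter, with the letters in 3 (37.5%) and 5 (62.5%). Of the 12 largest positive, 11 had a promoter, with the letters in 1 (9.09%) and 5 (45.5%). These shares are a description and were not tested. The promoters of Cenpa (chr5:30666636-30666935, plus strand) and Cdc20 (chr4:118437294-118437593, minus strand), from RefSeq on GRCm38.p6 and running from 250 bases before to 50 after the start, are shown because they hold both motifs, which are in capitals on whichever strand they lie.
Cenpa: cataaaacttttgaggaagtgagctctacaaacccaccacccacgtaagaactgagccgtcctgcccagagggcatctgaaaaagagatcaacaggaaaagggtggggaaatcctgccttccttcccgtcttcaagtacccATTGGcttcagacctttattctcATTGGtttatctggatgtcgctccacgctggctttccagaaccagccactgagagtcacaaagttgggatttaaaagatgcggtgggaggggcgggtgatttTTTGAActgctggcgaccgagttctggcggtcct
Cdc20: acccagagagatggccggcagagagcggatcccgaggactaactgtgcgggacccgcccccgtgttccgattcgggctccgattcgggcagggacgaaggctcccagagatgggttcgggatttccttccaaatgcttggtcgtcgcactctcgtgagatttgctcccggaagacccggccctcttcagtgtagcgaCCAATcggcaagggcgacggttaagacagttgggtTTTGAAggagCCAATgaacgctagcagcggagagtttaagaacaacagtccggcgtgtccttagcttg

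**Figure D4:**
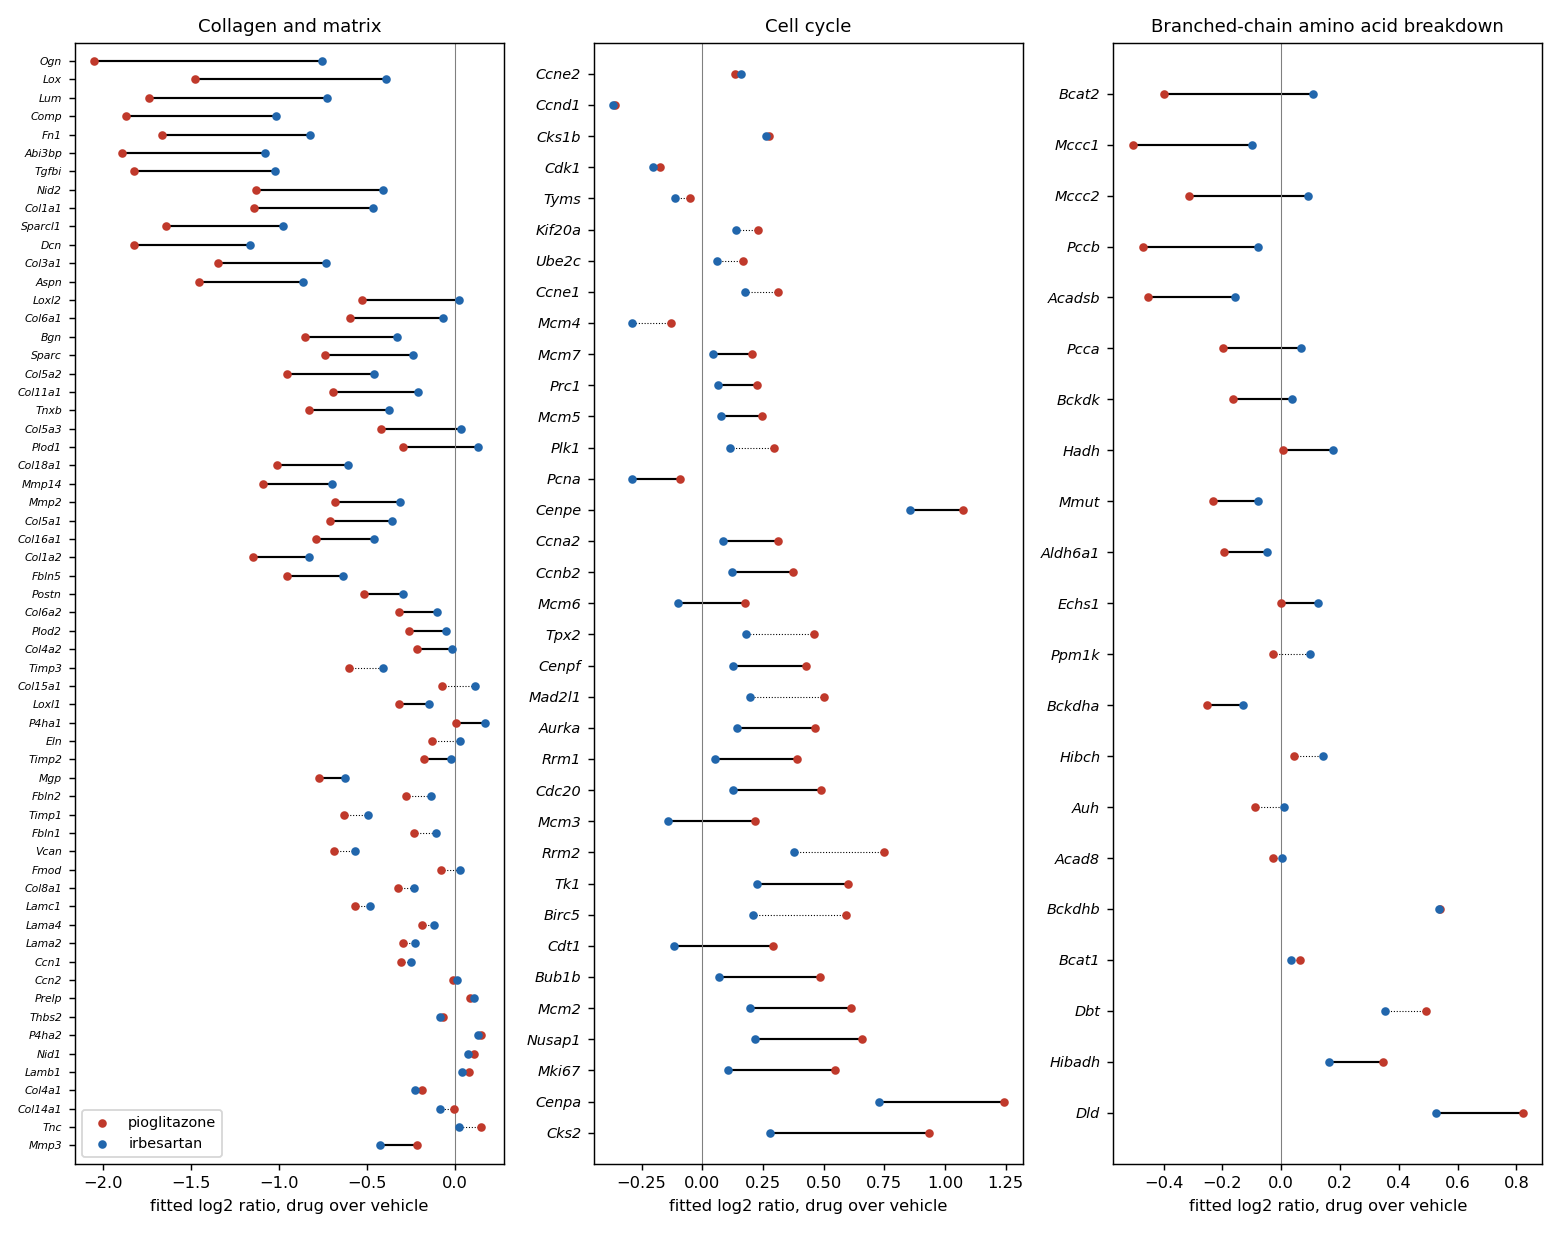
Fitted log2 ratio over vehicle of each gene tested in 3 lists, for pioglitazone (red) and irbesartan (blue), ordered by the difference. Solid lines join genes past the threshold for the difference and dotted lines the others. Red points lie left of blue for most matrix and branched-chain genes and right of blue for 34 of 35 cell cycle genes.

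Acute phase and inflammation genes were lower with pioglitazone in 8 of 28 cases and higher in 5. The acute phase protein genes Orm1 and Orm2, near-identical copies whose probes may read each other, had fitted ratios of -1.37 and -1.44 with pioglitazone, against -0.48 and -0.56 with irbesartan (differences -0.89 ± 0.05 and -0.87 ± 0.05). The pentraxin gene Ptx3 read -0.97, -1.12, -1.03 and -1.09 with pioglitazone, against -0.41, -0.37, -0.39 and -0.34 with irbesartan (difference -0.68 ± 0.07, adjusted p = 9.66e-05). Its groups did not overlap. Over the alternatives 7 to 10 genes were lower and 3 to 9 higher. Of 33 interferon response genes, 6 were higher and 3 lower. The guanylate binding protein gene Gbp3 had -1.02 with pioglitazone and -0.23 with irbesartan (difference -0.78 ± 0.04). The interferon count of higher genes was 3 without pioglitazone array 3 or 4 or irbesartan array 1 or 3, 3 when array numbers were blocked, and 1 without a dye term, and 5 were lower without irbesartan array 2.

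Genes of xenobiotic metabolism and oxidative stress went both ways, with 13 of 36 higher and 8 lower. The soluble epoxide hydrolase gene Ephx2 read 0.90, 0.98, 0.90 and 1.05 with pioglitazone, against 0.36, 0.20, 0.41 and 0.20 with irbesartan (difference 0.66 ± 0.06, adjusted p = 4.79e-05). The cytochrome P450 gene Cyp2f2 had fitted ratios of -1.95 with pioglitazone and -1.24 with irbesartan (difference -0.70 ± 0.04, or -0.35 with arrays scaled). Cbr3 and Sult1a1, given above, belong to this list. Without a dye term 5 were higher and 5 lower, and with arrays scaled 7 were higher.

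ER stress genes had 9 of 29 higher and 6 lower. The ER oxidase gene Ero1a was raised by both, to 0.73 with pioglitazone and 1.05 with irbesartan (difference -0.32 ± 0.05, or -0.54 with arrays scaled). The asparagine synthetase gene Asns was at 0.96 with pioglitazone and 0.65 with irbesartan (difference 0.31 ± 0.04, or 0.13 with an adjusted p = 0.138 with arrays scaled). The count of higher genes was 5 without pioglitazone array 4, 4 with arrays scaled and 2 without a dye term. The count of lower genes was 3 without pioglitazone array 2 and 1 without a dye term. Glucocorticoid response genes had 5 of 18 higher and 5 lower, with 1 to 6 and 3 to 5 over the alternatives and 3 higher without pioglitazone array 2 or 4 or irbesartan array 2, and the clock gene Per1 was lower (-0.45 ± 0.08) with pioglitazone. Cytosolic ribosomal protein genes had 6 of 66 higher and 7 lower, a share of 19.7% beside 19.8% of all genes, and over the alternatives 2 to 8 were higher and 1 to 12 lower.

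Markers of cell types other than fat cells and fibroblasts varied by list. Endothelial (11 tested), hepatocyte (14) and blood cell markers (10) had 0 genes past the threshold in either direction with limma, and over the alternatives at most 1 higher and 2 lower in a list. The lowest difference, not past the threshold, was -1.08 among the blood cell markers and -0.66 among the endothelial markers. Macrophage markers had 1 of 5 higher, Cd14 at 0.19 ± 0.04. Muscle markers had 3 of 15 lower, among them Acta1 (-0.47 ± 0.08) and the intermediate filament gene Des (-0.80 ± 0.12, adjusted p = 0.066 without a dye term), and 1 higher, which lost its call without any 1 of 10 of the 12 arrays. In either direction 26.7% of the muscle list passed, above the 19.8% of all genes. Over the alternatives 0 to 2 muscle markers were higher and 1 to 4 lower. Over all 30 lists, the median difference ran from -0.25 in the fibroblast markers to 0.28 in the cell cycle genes, beside 0.003 over all genes.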

How the data were processed

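RNA of drug-treated and vehicle-treated mouse cells was compared on 2-colour Agilent arrays, 4 for each of 3 drugs. The authors deposited 1 log10 ratio of the channels per spot and array; the log base was inferred from the values, which are symmetric and limited to 2 in size, and the upstream steps are not given in the sources used here. Ratios were turned to drug over vehicle and converted to log2. Of 22393 spots, 471 control-like spots, of which 0 had a gene, were left out. In the platform annotation 18218 spots had 1 gene symbol, 16 several and 4159 none. Repeat spots were averaged, and a feature needed a value on 3 of the 4 arrays of each drug. No per-sample column was left unused (0).

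Differences were fitted with limma 3.58.1 in R 4.3.3 (lmFit, contrasts.fit, eBayes) over all 12 arrays with 1 term for the dye, two-sided, with Benjamini-Hochberg adjustment over all features or genes and a threshold of 0.05. Errors are SEs of the fit (4 arrays per drug), and 1 pair of drugs was compared. Tables were made with Python 3.11.15 and pandas 2.3.3. The number of arrays limits the precision, and no depth per spot was given. On simulated data with 17217 features, the fit of pioglitazone minus irbesartan recovered 31 of 67 differences of 0.25, 55 of 67 of 0.5 and 65 of 66 of 1 (log2), with 10 false calls.

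The genes named were the 12 largest differences in each direction without overlap between the drugs, up to 5 genes per list past the threshold, up to 6 of opposite sign per direction, and 16 genes of interest. Of these, 1 of the 12 largest negative differences is not reported here. Mmp3, Twist2 and Cdc20 were named after their values were seen. The members and the lists were chosen with earlier results of these data known. Alternatives left out single arrays or the dye term, scaled the arrays, used array weights, a block for the array number or other filters, or read the ratio as channel 1 over channel 2, which was added after seeing the data.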

Additional observations from a re-analysis of the deposited data

Results flagged for a closer look

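In 7 of 297 groups of 4 arrays, 1 array lay farther from the other 3 than Dixon's test allows at its 95% level, where chance gives about 5% of groups. For pioglitazone these were Adipoq on array 1 (-0.64, others -1.08 to -1.04), Fgf21 on array 3 (0.73, others 0.33 to 0.37), Mcm2 on array 3 (0.41, others 0.66 to 0.69), Eci2 on array 4 (0.35, others 0.42 to 0.43) and S100a4 on array 1 (-1.16, others -1.20 to -1.19). For irbesartan they were Nusap1 on array 1 (0.092, others 0.24 to 0.27) and Mt2 on array 3 (-0.034, others 0.11 to 0.12). No cause was tested.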

How the results depend on the processing

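Beside 3113 features past the threshold as reported, 1044 (412 higher, 632 lower) passed without a dye term, and with arrays scaled to 1 median absolute value 1763 (727 higher, 1036 lower), 103 of them at 1.5-fold or more. The cause was not tested. Leaving out 1 array gave 2193 to 3808 features, 885 to 1654 higher and 1308 to 2154 lower, with 175 to 239 at 1.5-fold or more. Over the settings 39.5% to 44.8% of calls were higher, with the ratio read as channel 2 over channel 1. Of 3568 values of named genes under 24 alternatives, the turned reading not among them, 3404 kept their side of the threshold. Among these, genes past the threshold as reported also kept their direction, which was not checked for the other genes. The call was lost in 162 values, and Elovl3 gained one with arrays scaled, with its sign turned (-0.504). With arrays scaled Idh3a turned from 0.21 to -0.05 (-0.055, adjusted p = 0.623). Reading the ratio as channel 1 over channel 2 turns every sign and keeps the totals, but exchanges the directions: 1801 features would be higher and 1312 lower, and 55.2% to 60.5% of calls higher over the settings. With the array number as a replicate block 2495 features passed, and 5 named gene entries lost their call. Deviations of arrays of the same number from their drug means correlated at 0.441 to 0.49, and within a channel order at -0.003 to 0.003, so the number follows the order of the channels, which the fit already holds.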

Other observations

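A pair of gene groups was put together after the values were seen and has no test as a group. Of 18 genes of glycogen metabolism, 5 were lower and 2 higher with pioglitazone, with a median difference of -0.01 (log2). Over all genes 11.3% were lower and 8.5% higher. The 5 include Phkg1, Ppp1r3c and Pygl, which had already been named for their differences, so an excess of lower genes over that share is no result. Besides Phkg1, Ppp1r3c and Pygl, the lower ones were the phosphorylase gene Pygb (-0.94 ± 0.10) and the synthase gene Gys1 (-0.21 ± 0.04). The liver-type synthase gene Gys2 (0.56 ± 0.07) and the glycogenin gene Gyg (0.26 ± 0.04) were higher.

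Of 17 genes of the growth factor and ERK response, 8 were higher and 1 lower with pioglitazone, with a median difference of 0.17. Over all genes 8.5% were higher and 11.3% lower. The 8 include Fosl1 and Dusp6, which had already been named for their differences, so an excess of higher genes over that share is no result. Counts of this group under the alternatives are not given here. Besides Fosl1 and Dusp6, the higher ones were the immediate early genes Egr1 (0.49 ± 0.08) and Ier3 (0.48 ± 0.11), then Phlda1 (0.40 ± 0.05), the pathway inhibitor Spred2 (0.36 ± 0.04) and the phosphatase genes Dusp4 (0.26 ± 0.04) and Dusp7 (0.17 ± 0.05). The receptor inhibitor gene Errfi1 was lower (-0.22 ± 0.05).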
